A study of Mus musculus with 8 samples.

Results

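The 10 genes described here are immediate early genes, followed in sorted heart cells of the mouse embryo: Fos, Fosb, Jun, Junb, Egr1, Ier2, Atf3, Dusp1, Nr4a1 and Btg2. They were chosen by name, and every non-control probe that the array files assign to these 10 genes was taken, which gave 14 of 41174 probes. Of these 14 probes, 13 gave a signal well above background on 4 or more arrays of the 8 and were tested among 18482 probes. The remaining probe, A_52_P554555 for Ier2, was above background on 1 array only.

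All embryos were of the transgenic line minKGFP, made with a bacterial artificial chromosome (BAC) that puts green fluorescent protein (GFP) under control of the minK gene, Kcne1, which encodes a subunit of potassium channels. Hearts were taken at stage E10.5 and dispersed with the enzymes pancreatin and collagenase, and the single cells were sorted straight into Trizol LS. The GFP-high group, labelled as cells of the conduction system, had 4 samples, and the GFP-low group, labelled as chamber myocardium, had 4 samples. Both groups went through the same digestion and sort, and no undigested heart was compared here. The sort depends on the reporter's brightness, so the groups are fractions of a heart and not purified cell types. Amplification started from 5 ng of total RNA per sample, and 2 ug of amplified product was labelled with a single dye for 1 Agilent array.

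Immediate early genes are transcribed within minutes of a growth factor, depolarisation or stress signal, from factors that are already present in the cell. Kinases of the MAPK pathways act on such factors as SRF with its ELK partners and CREB, which bind the promoters of these genes. Enzymatic dissociation of tissue is widely known to induce the same genes. The 10 genes cover several roles: FOS, FOSB, JUN, JUNB and ATF3 are leucine-zipper proteins that form or oppose the AP-1 factor, EGR1 is a zinc-finger factor, NR4A1 is an orphan nuclear receptor, DUSP1 is a phosphatase that turns MAP kinases off, BTG2 restrains proliferation, and IER2 is a nuclear protein of less defined function.

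The cAMP response element, to which CREB-type factors bind, is shown here because nearly all of these promoters hold at least its shorter form. Of the 10 genes, 8 had a RefSeq promoter (assembly GRCm38.p6), and the 250 bases before each start were searched on both strands. Its short form, TGACG or CGTCA, was found in 7 of the 8 promoters, all but that of Jun, and in 17.8% of all 32851 promoters of the same length. The full element TGACGTCA, which contains the short form on both strands, was found in the Btg2 and Dusp1 promoters and in 1.55% of all promoters. The 4 promoters below are those of Nr4a1, with the most short elements, of Btg2 and Dusp1, with the full element, and of Fos, the gene most often used to mark such a response. Each is written 5′ to 3′ on the gene's own strand, and capitals mark the short form or the full cAMP response element.
Nr4a1, chr15:101266596-101266845, plus strand: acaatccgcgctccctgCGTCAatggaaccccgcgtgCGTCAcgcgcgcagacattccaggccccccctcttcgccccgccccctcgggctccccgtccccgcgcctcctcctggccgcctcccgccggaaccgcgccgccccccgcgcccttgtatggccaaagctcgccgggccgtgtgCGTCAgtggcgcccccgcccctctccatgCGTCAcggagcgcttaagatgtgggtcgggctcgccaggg
Btg2, chr1:134079156-134079405, minus strand: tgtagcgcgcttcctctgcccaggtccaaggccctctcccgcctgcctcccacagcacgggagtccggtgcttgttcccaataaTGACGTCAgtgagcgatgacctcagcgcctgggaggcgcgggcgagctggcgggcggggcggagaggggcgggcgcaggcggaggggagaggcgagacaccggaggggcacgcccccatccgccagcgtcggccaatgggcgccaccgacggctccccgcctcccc
Dusp1, chr17:26508473-26508722, minus strand: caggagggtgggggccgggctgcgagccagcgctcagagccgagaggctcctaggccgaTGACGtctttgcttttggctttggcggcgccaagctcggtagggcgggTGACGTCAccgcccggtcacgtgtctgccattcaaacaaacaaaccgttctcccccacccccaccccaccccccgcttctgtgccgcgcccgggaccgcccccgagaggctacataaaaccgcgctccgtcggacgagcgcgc
Fos, chr12:85473640-85473889, plus strand: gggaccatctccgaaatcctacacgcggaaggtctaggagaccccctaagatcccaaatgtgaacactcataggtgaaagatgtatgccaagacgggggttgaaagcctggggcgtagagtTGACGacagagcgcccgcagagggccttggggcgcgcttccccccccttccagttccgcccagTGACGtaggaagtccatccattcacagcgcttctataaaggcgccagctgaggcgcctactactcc
Nr4a1 held 4 separate short elements, at 233, 213, 69 and 40 bases before the start. In Btg2 the full element lay 166 bases before the start and in Dusp1 143 bases before it, and Dusp1 had 1 further short element at 191. Fos held short elements at 129 and 66 bases. The GC box, GGGCGG or CCGCCC, was found in 7 of the 8 promoters, all but that of Junb, and in 32.7% of all promoters. No match was found in the 8 windows for the AP-1 site TGAGTCA or TGACTCA (4.46% of all promoters), the EGR site GCGTGGGCG or CGCCCACGC (0.536%) or the CArG box of SRF (1.47%). A match is a stretch of letters and does not show that a factor was bound there. Bases farther than 250 before the start were not searched, and Egr1 and Ier2 were not among the 8 genes.

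Values are log2 of the processed signal minus the array's 75th percentile, so 0 is the level of that percentile, and differences are GFP-high minus GFP-low on that scale with the standard error (SE) of the fit. The arrays had 36.3% to 50.7% of their non-control spots well above background and no saturated spot. Array profiles correlated at 0.847 to 0.908 within GFP-high, 0.876 to 0.914 within GFP-low and 0.787 to 0.914 between the groups. In each group, replicates 1 and 2 were on slide 1 and the others on slide 2. The reporter's own gene, Kcne1, read higher in every GFP-high sample on both of its probes, by 2.83 ± 0.29 SE and 1.29 ± 0.36 SE, with adjusted p = 0.0311 and 0.225 in the limma fit. Of 8 genes used as marks of conduction cells, 7 were tested, 5 were above 0 and none was called by limma. Over all tested genes 8006 of 12901 were above 0. Bmp2 differed by 2.82 ± 1.12 SE and Tbx3 by 1.46 ± 0.94 SE, each above background on 2 of the 4 GFP-low arrays; Tbx2 was higher in all 4 GFP-high samples, by 0.63 ± 0.25 SE, while Hcn4, the pacemaker channel gene, differed by -0.65 ± 0.45 SE and Shox2 was too dim to be tested. Among 3 genes with high chamber expression, none was called by limma; Nppa was lower in all 4 GFP-high samples (-0.89 ± 0.24 SE), while Gja1 differed by -1.53 ± 0.42 SE and Gja5 by -0.22 ± 0.38 SE with overlapping groups. These 11 genes were picked after values of the series were known.

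No immediate early gene passed the test between the groups. Limma called 0 of the 13 probes at a Benjamini-Hochberg adjusted p under 0.05, against 0.0379% of all probes tested (7 of 18482), and the lowest adjusted p among the 13 was 0.242. That total of 7 was 22 without GFP-high replicate 3 and 0 without any other single array. At an unadjusted p under 0.05 limma found 4 of the 13, all higher in GFP-high, where 6.87% of all probes were higher at that level. The same 4 probes, for Btg2, Junb, Nr4a1 and Ier2, were those in which every GFP-high sample lay above every GFP-low sample, which held for 5.18% of all probes. None of the 13 had every GFP-high sample below every GFP-low sample, against 3.46% of all, and none was lower at an unadjusted p under 0.05, against 7.03% of all. Of the 13 differences, 10 were above 0, with a median of 0.39, while 58.7% of all probes were above 0 and their median was 0.13. With the brightest probe of each gene, 8 of 10 genes were above 0 with a median of 0.38, beside a median of 0.16 over 12901 genes, 8006 of them above 0. In bulk samples like these, a lower signal can mean fewer cells of one type or less RNA per cell, and these cannot be told apart.

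**Figure D1:**
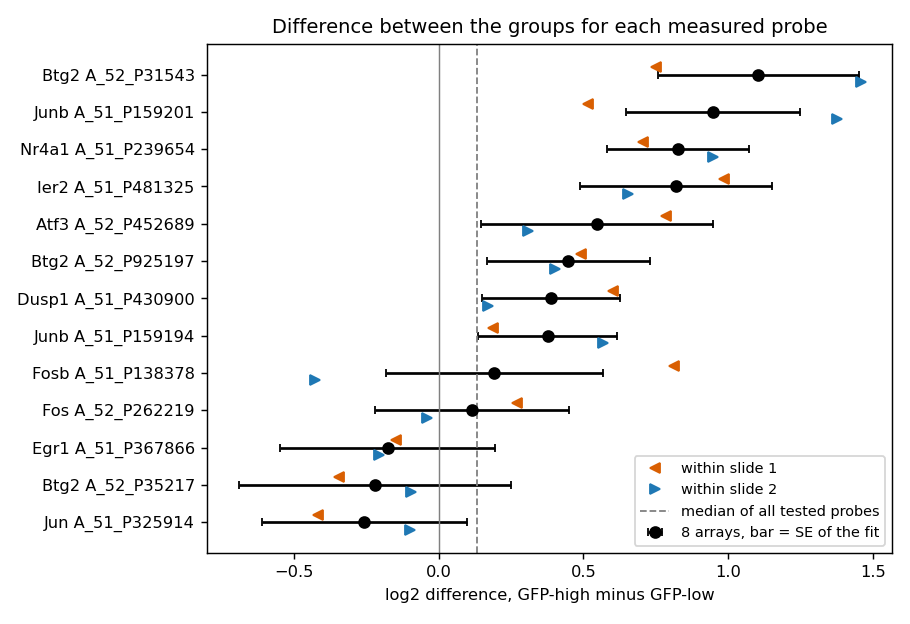
Log2 difference between GFP-high and GFP-low (x axis) for each of the 13 tested probes (y axis). Black points with bars are the differences over 8 arrays with the SE of the limma fit, orange and blue triangles are the differences within slide 1 and slide 2, and the dashed line is the median of all tested probes, 0.13. The upper 4 probes, for Btg2, Junb, Nr4a1 and Ier2, range from 0.82 to 1.11, and Fos and Fosb have slide values on both sides of 0.

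Nr4a1, the nuclear receptor, had the lowest p of the 10 genes. Its probe A_51_P239654 (mm9 chr15:101105071-101105130, plus strand) read 5.30, 5.09, 5.39 and 5.42 in GFP-high replicates 1 to 4 and 4.72, 4.25, 4.26 and 4.67 in GFP-low replicates 1 to 4. All 4 GFP-high samples were above the highest GFP-low sample. The group means were 5.30 ± 0.15 (SD, n = 4) and 4.47 ± 0.26 (SD, n = 4), a difference of 0.83 ± 0.25 SE, or 1.77-fold, with adjusted p = 0.242 by limma. The difference was 0.71 on slide 1 and 0.95 on slide 2, and it stayed between 0.75 and 0.91 when each array was left out in turn.

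**Figure D2:**
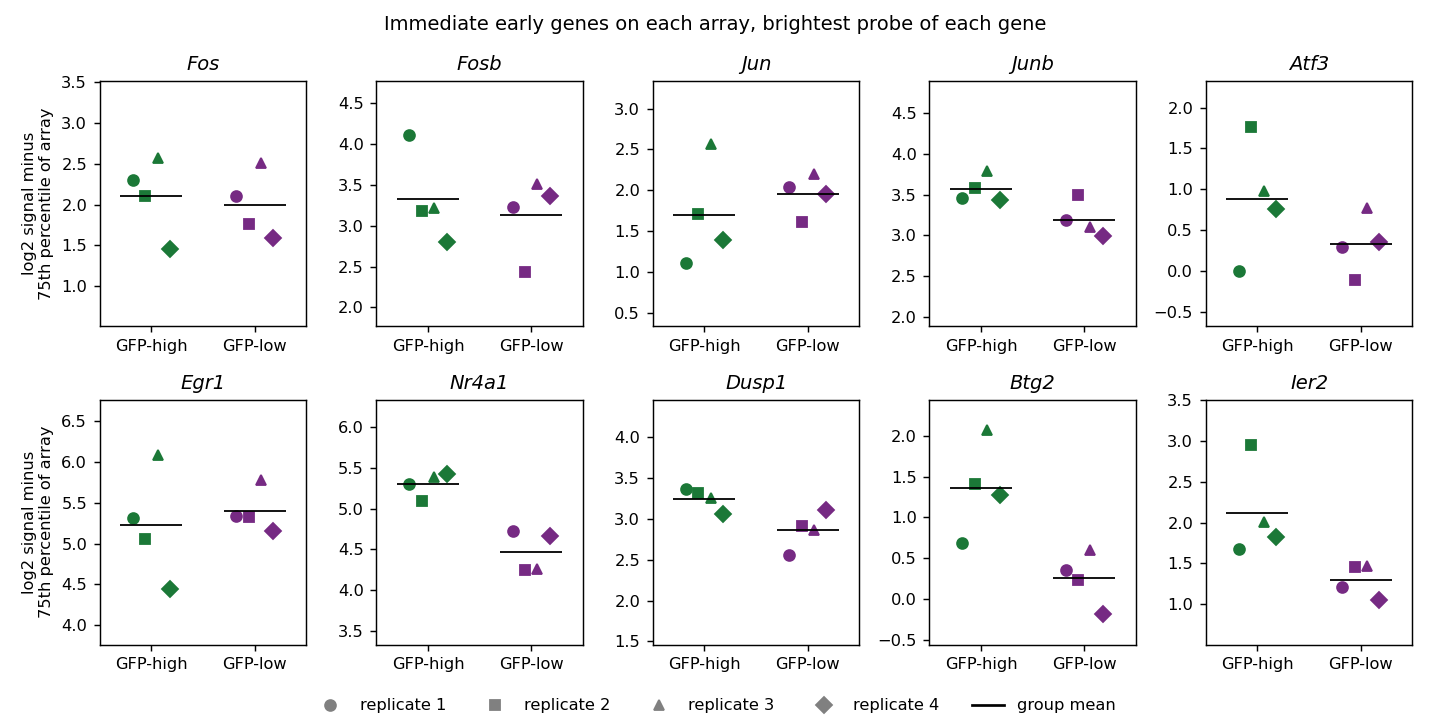
Log2 signal minus the array's 75th percentile (y axis, the same span of 3 log2 units in each panel) in GFP-high (green) and GFP-low (purple) for the brightest probe of the 10 genes. Symbols are the replicates and black lines the means of 4 samples; Nr4a1, Btg2 and Ier2 have groups that do not overlap, and replicate 3 is the highest of both groups for Fos, Egr1, Jun and Btg2.

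Among the FOS members, Fos and Fosb had overlapping groups. Fos (probe A_52_P262219, mm9 chr12:86817900-86817959, plus strand) read 2.30, 2.11, 2.56 and 1.46 in GFP-high and 2.11, 1.76, 2.51 and 1.59 in GFP-low. In both groups replicate 3 was the highest and replicate 4 the lowest. The difference was 0.12 ± 0.34 SE (limma, adjusted p = 0.890), with values of 0.27 on slide 1 and -0.039 on slide 2. Fosb (A_51_P138378, mm9 chr7:19888477-19888536, minus strand) read 4.11, 3.18, 3.22 and 2.80 in GFP-high and 3.23, 2.43, 3.51 and 3.36 in GFP-low. GFP-high replicate 1 was the highest of the 8 and GFP-low replicate 2 the lowest, both on slide 1, and the difference was 0.19 ± 0.37 SE (limma, adjusted p = 0.833). It was 0.81 on slide 1 and -0.43 on slide 2, so its sign turned with the slide.

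Jun and Junb, the JUN partners of FOS proteins, were unlike each other. Jun (A_51_P325914, mm9 chr4:94715864-94715923, minus strand) read 1.11, 1.71, 2.56 and 1.39 in GFP-high and 2.04, 1.61, 2.20 and 1.95 in GFP-low. The GFP-high samples held both the highest and the lowest of the 8 values. The difference was -0.26 ± 0.35 SE (limma, adjusted p = 0.755). Junb, read by a pair of probes, was higher in GFP-high on both. Probe A_51_P159194 (mm9 chr8:87500843-87500902, minus strand) read 3.46, 3.59, 3.79 and 3.44 in GFP-high and 3.18, 3.49, 3.10 and 2.99 in GFP-low, where GFP-low replicate 2 lay among the GFP-high samples. Its difference was 0.38 ± 0.24 SE (limma, adjusted p = 0.497). Probe A_51_P159201 (mm9 chr8:87500881-87500940, minus strand) read 2.67, 2.95, 3.60 and 3.0 in GFP-high and 2.14, 2.44, 1.67 and 2.18 in GFP-low, with no overlap. Its difference was 0.95 ± 0.30 SE, or 1.93-fold, with adjusted p = 0.255 by limma. On slide 1 this was 0.52 and on slide 2 it was 1.38.

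Atf3, a stress-induced member of the leucine-zipper family that often represses, had overlapping groups. Its probe A_52_P452689 (mm9 chr1:192994547-192994606, minus strand) read -0.0026, 1.76, 0.98 and 0.76 in GFP-high and 0.30, -0.11, 0.77 and 0.36 in GFP-low. GFP-high replicate 2 was the highest of the 8, and GFP-high replicate 1 was below all GFP-low samples but replicate 2. The difference was 0.55 ± 0.40 SE (limma, adjusted p = 0.551), and leaving out single arrays gave 0.25 to 0.84.

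Egr1, the zinc-finger factor, was at a high level in both groups. Its probe A_51_P367866 (mm9 chr18:35024395-35024454, plus strand) read 5.32, 5.05, 6.08 and 4.44 in GFP-high and 5.34, 5.32, 5.78 and 5.16 in GFP-low. As for Fos, replicate 3 was the highest and replicate 4 the lowest in both groups. The difference was -0.18 ± 0.37 SE (limma, adjusted p = 0.844). Relative to its array's other spots, each sample therefore held Egr1 signal far above the 75th percentile whichever fraction it came from.

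Dusp1 and Btg2 act against the signal or against growth. Dusp1 (A_51_P430900, mm9 chr17:26642526-26642536 as the files give it, minus strand) read 3.36, 3.32, 3.26 and 3.06 in GFP-high and 2.56, 2.92, 2.87 and 3.11 in GFP-low. Only GFP-low replicate 4 reached the GFP-high values, and the difference was 0.39 ± 0.24 SE (limma, adjusted p = 0.486). Btg2 was measured by 3 probes that differed in what they showed. Probe A_52_P31543 (mm9 chr1:135972094-135972153, minus strand) read 0.68, 1.41, 2.07 and 1.27 in GFP-high and 0.36, 0.23, 0.60 and -0.18 in GFP-low, with no overlap. Its difference of 1.11 ± 0.35 SE, or 2.15-fold, was the largest among the 13 probes (limma, adjusted p = 0.255), with 0.75 on slide 1 and 1.46 on slide 2. Probe A_52_P925197 (mm9 chr1:135973916-135973975) read -0.28, 0.36, 0.08 and 0.19 in GFP-high and -0.85, -0.05, -0.20 and -0.34 in GFP-low. GFP-high replicate 1 lay below 2 of the GFP-low samples, and the difference was 0.45 ± 0.28 SE (limma, adjusted p = 0.493). Probe A_52_P35217 (mm9 chr1:135974181-135974240) read -1.57, -0.75, -0.06 and -0.45 in GFP-high and -1.64, 0.01, -0.09 and -0.22 in GFP-low. Here replicate 1 was far below the other replicates in both groups, and the difference was -0.22 ± 0.47 SE (limma, adjusted p = 0.847).

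Ier2 read higher in GFP-high on its measured probe. A_51_P481325 (mm9 chr8:87185211-87185245 as the files give it, minus strand) read 1.68, 2.96, 2.01 and 1.82 in GFP-high and 1.21, 1.45, 1.46 and 1.06 in GFP-low, so the groups did not overlap. GFP-high replicate 2 stood above the other GFP-high samples. The difference was 0.82 ± 0.33 SE, or 1.77-fold, with adjusted p = 0.333 by limma, and it was 0.54 without GFP-high replicate 2. The other probe filed under Ier2, A_52_P554555 (mm9 chr8:87183623-87183681), was made from another transcript record and starts 1564 bases farther along the strand. It was not well above background on 7 of the 8 arrays, and only GFP-high replicate 2 read it, so no fold is given.

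Probes of one gene agreed for Junb and less for Btg2. The sequences below show where the Junb probes overlap and where the Btg2 probes lie along the transcript, each written 5′ to 3′ from its probe. For Junb, capitals mark the 22 bases that both probes share, with the first 30 bases of the one and the last 30 of the other shown. For Btg2, capitals mark TAG, the only stop triplet when that stretch is read in triplets from its first base; the whole of A_52_P35217 and the first 30 bases of the other Btg2 probes are shown.
Junb A_51_P159201: acacgcacTTCGTGTCTAAAGTCTATTTTA
Junb A_51_P159194: TTCGTGTCTAAAGTCTATTTTAagatgtgt
Btg2 A_52_P35217: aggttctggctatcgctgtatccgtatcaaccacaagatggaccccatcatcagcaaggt
Btg2 A_52_P925197: aagaactatgtgatggccgtctccagcTAG
Btg2 A_52_P31543: ttaaatcttcaattctttactgtccttgtt
The Junb probes start 38 bases apart. Over the 8 arrays they correlated with Pearson r = 0.891 (exact permutation p = 0.00377, adjusted over 5 probe pairs 0.0188) and Spearman rho = 0.762 (exact p = 0.0368, adjusted 0.144). This permutation treats the 8 arrays as exchangeable, although they share groups, slides and replicate numbers, so its p-values can be too small. Without the 2 arrays farthest from the median of A_51_P159194 r was 0.895, and with group means removed it was 0.721. Although the probes ranked the arrays alike, the size of the group difference was 0.57 larger on A_51_P159201 (exact permutation p = 0.0286, the smallest that 70 assignments of 4 against 4 allow, adjusted over 4 pairs 0.114).

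Along the Btg2 transcript, A_52_P35217 comes first, A_52_P925197 starts 265 bases after it and A_52_P31543 starts 1822 bases farther on. The last probe differed from the first by 1.33 in its group difference (exact permutation p = 0.0571, adjusted 0.114), and from the middle one by 0.66 (exact p = 0.114, adjusted 0.114). Over the arrays r was 0.124 between the first and the last probe, 0.639 between the middle and the last, and 0.522 between the first and the middle. The last of these values turned to -0.69 without the 2 arrays farthest from the first probe's median, which were replicate 1 of each group. With group means removed the 3 values were 0.462, 0.274 and 0.836 in the same order. Beside this, 4225 genes with several tested probes gave 7264 probe pairs with a median r of 0.402, and 28.3% of these pairs had group differences of opposite sign. The 4 tested pairs of Junb and Btg2 had a median r of 0.581, and 2 of the 4 were of opposite sign. GC content of the whole probes was 50%, 55% and 35% for Btg2 from first to last, and 43.3% for Junb A_51_P159201 against 30% for A_51_P159194; its part in the differences was not tested.

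**Figure D3:**
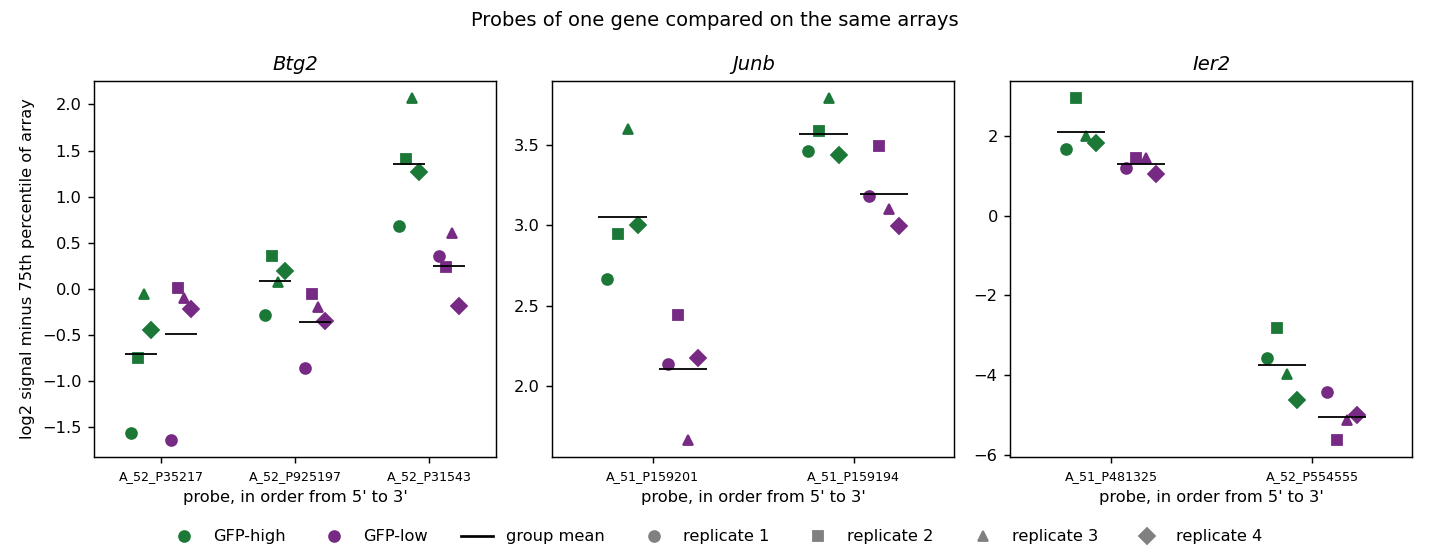
Log2 signal minus the array's 75th percentile (y axis) for each probe of Btg2, Junb and Ier2 (x axis, in 5′ to 3′ order), with GFP-high in green, GFP-low in purple, a symbol per replicate and a line at each mean of 4 samples. Levels of different probes are not comparable; within Btg2 the groups separate on A_52_P31543 alone, within Junb on A_51_P159201, and the second Ier2 probe lies between -5.63 and -2.81, above background on 1 array only.

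Fos and Jun were printed 10 times on each array. The SD among their spots had a median of 0.032 for Fos and 0.043 for Jun, while the SD over the 8 arrays was 0.41 and 0.46, which is 12.9 and 10.8 times as large. GFP-low replicate 3 was the exception: its spot SD was 0.106 for Fos, or 0.305 with the spots marked as outliers, and 0.271 for Jun. On that array the Jun value of 2.20 was only a little above the 2.04 of GFP-low replicate 1, so which GFP-low sample is highest for Jun is less sure. Spread between arrays includes sample preparation and amplification.

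The 10 genes did not move as one block over the arrays. Across their 45 pairs the median Pearson r was 0.290, from -0.28 to 0.841, and 32 pairs were above 0, while all 83134100 pairs of tested genes had a median of 0.041 and 53.0% above 0. These are descriptions over 8 arrays that share amplification and scaling. With the group means removed the median of the 45 pairs was 0.155 with 62.2% above 0, beside 0.029 and 52.1% over all pairs. With the slide means removed as well it was 0.170 with 60% above 0, beside 0.017 and 51.0% over all pairs. Each slide holds 4 arrays, too few for a correlation of its own. After adjustment over the 45 pairs no pair passed 0.05 by exact permutation, with 6 pairs under 0.05 unadjusted by r and 5 by rho, and the lowest adjusted p was 0.239 for r, that of Egr1 with Fos, and 0.0513 for rho. The latter pair was Btg2 and Ier2, with rho = 0.952 (exact p = 0.00114), both of them genes whose groups do not overlap. These permutations treat the 8 arrays as exchangeable. Arrays share groups, slides and replicate numbers, so the exact p-values can be too small.

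Egr1 and Fos had the highest Pearson r of the 45 pairs, with group means removed as well. Their r was 0.841 (exact permutation p = 0.00531, adjusted 0.239) and their rho 0.738 (exact p = 0.0458, adjusted 0.412). The p-values in this paragraph carry the same limit, that arrays were treated as exchangeable. Without the 2 arrays farthest from the Egr1 median r was 0.639, and with group means removed it was 0.897. Egr1 also followed Jun, with r = 0.720 (exact p = 0.0425, adjusted 0.338), rho = 0.738 (exact p = 0.0458, adjusted 0.412) and an r of 0.707 with group means removed. Without the 2 arrays farthest from the Egr1 median, its r with Jun was 0.399. A further pair, Atf3 and Ier2, had an r of 0.777 with group means removed, and both genes were highest in GFP-high replicate 2.

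Btg2, Ier2 and Nr4a1, whose groups do not overlap on the brightest probe, carry the group difference in any correlation over all 8 arrays, so their values with group means removed are given. These were 0.547 for Btg2 with Junb, 0.360 for Btg2 with Ier2, and -0.14 for Btg2 with Nr4a1. Nr4a1 gave -0.67 with Ier2, -0.36 with Junb and -0.34 with Dusp1. Within the groups, the samples with the most Nr4a1 were thus not those with the most Ier2. Btg2 and Jun reached 0.856 with group means removed, although Jun was lower and Btg2 higher on average in GFP-high.

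**Figure D4:**
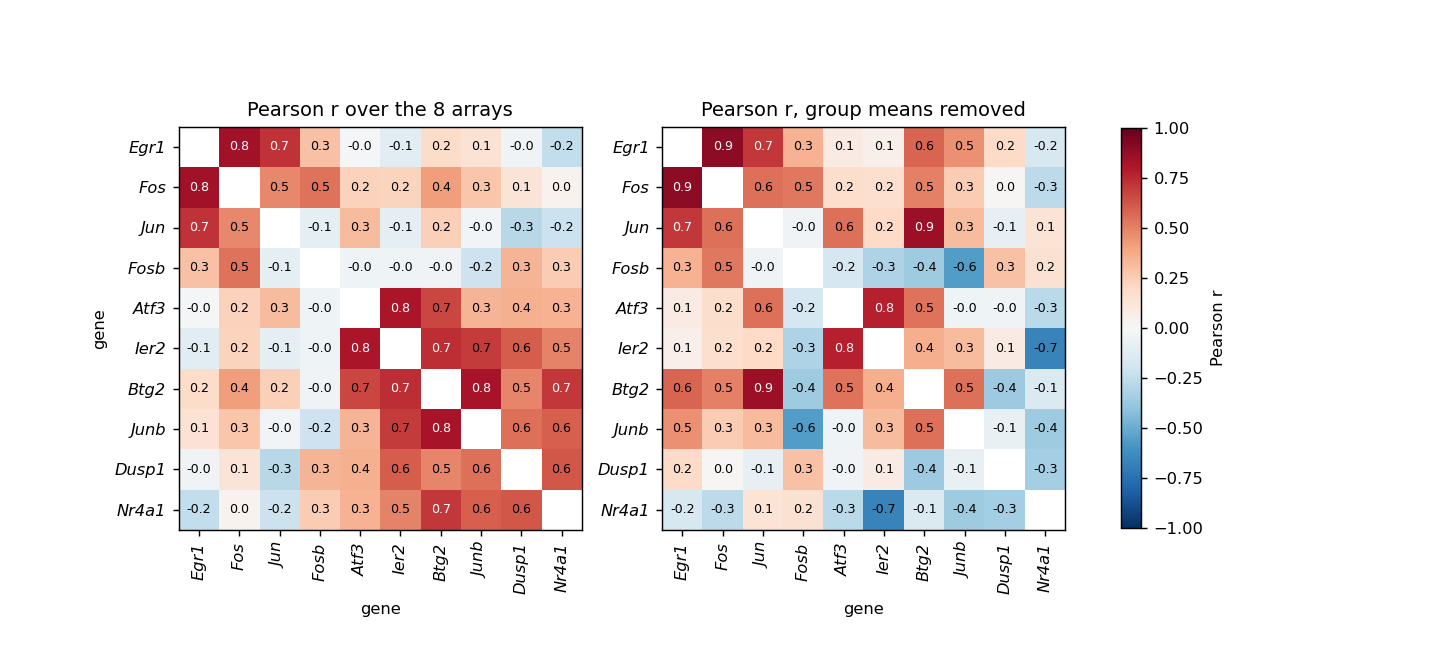
Pearson r between the brightest probes of the 10 genes over 8 arrays (left) and with group means removed (right), coloured from -1 (blue) to 1 (red) and printed to 1 decimal. Egr1, Fos and Jun form a red block in both panels, and the red block of Ier2, Btg2, Junb, Dusp1 and Nr4a1 on the left is paler or blue on the right.

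Replicate 3 was the highest sample of both groups for 4 of the 13 probes, those of Fos, Egr1, Jun and Btg2 (A_52_P31543), while 10.1% of all probes had this pattern. For 5 of the 13 probes the highest sample bore the same number in both groups, against 34.4% of all. Replicate 3 of both groups lay on slide 2. GFP-high replicate 3 had the lowest share of spots well above background of all arrays, 36.3%, and the highest share of surrogate values, 49.4%. Without that array the median correlation between the genes was 0.211, beside 0.290 with all arrays. Between the slides limma called 0 of the 13 probes and 0 of all 18482, the lowest adjusted p among the 13 was 0.727, and at an unadjusted p under 0.05 limma found 0 of the 13 and 6.82% of all.

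The genes whose profile was most like the mean of the 10, over 8 arrays, were Bmp7 (r = 0.983), Ndrg4 (0.973), Plk2 (0.962), Haghl (0.962) and Epm2a (0.954). They were picked as the highest of 12895 genes measured on every array, so their r is a description. Among the 10 themselves, Btg2 was closest to that mean (0.886) and Fosb farthest from it (0.302). Each of the 10 is part of that mean, which was centred but not scaled, so a gene with a wide spread weighs more in it.

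A wider list of other early response genes also held none that passed the test. Of 55 genes, 50 were tested and 40 were above 0, with a median of 0.33, beside 8006 of 12901 genes above 0 and a median of 0.16. Limma called none; 8 were higher at an unadjusted p under 0.05 and 0 lower, and 6 had groups that do not overlap, all higher. Over all probes these last shares were 6.87% and 5.18%. Cebpb, a leucine-zipper factor of the inflammatory response, read 3.36, 3.19, 3.01 and 3.86 in GFP-high and 2.24, 1.33, 0.57 and 2.18 in GFP-low, a difference of 1.78 ± 0.42 SE (limma, adjusted p = 0.182). Gadd45g, a stress and growth-arrest gene, read 4.41, 4.53, 4.43 and 4.75 in GFP-high and 3.10, 2.65, 2.84 and 3.65 in GFP-low, a difference of 1.47 ± 0.29 SE (limma, adjusted p = 0.135). For both genes every GFP-high sample lay above every GFP-low sample. The other 4 with separate groups, named after their values were seen, were Phlda1 (1.12), Hbegf, a growth factor that activates the EGF receptor (0.97), Dusp10, a phosphatase of stress kinases (0.65), and Zfp36, which promotes decay of early response mRNAs (0.47).

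Upstream of these genes, 19 of 21 kinases and promoter factors were tested and 12 were above 0, with a median of 0.16. Over all tested genes 8006 of 12901 were above 0, and their median was also 0.16. Limma called none of the 19, and none was under an unadjusted p of 0.05. Over all probes 6.87% were higher and 7.03% lower at that level. Those with the smallest p were the stress kinases Mapk9 (-0.85 ± 0.41 SE, limma adjusted p = 0.388) and Mapk8 (-0.89 ± 0.47 SE, limma adjusted p = 0.422). Both differences were larger on slide 1 (-1.52 and -1.51) than on slide 2 (-0.19 and -0.28). Of 16 genes for leucine-zipper partners of AP-1, 12 were tested and 9 were above 0, with a median of 0.28 and none called by limma. In 1 of the 12 every GFP-high sample lay above every GFP-low sample, against 5.18% of all probes. Fosl1, Fosl2, Jund, Maff and Mafk are counted in this list and among the other early response genes as well. Batf, an AP-1 partner best known from leukocytes, read 2.09 ± 0.52 SE higher in GFP-high (limma, adjusted p = 0.194) with no overlap, but only 2 of the 4 GFP-low arrays measured it above background, so the size of that difference is uncertain. The brightest of 4 Atf2 probes, 2 of them above 0, differed by -1.37 ± 0.63 SE (limma, adjusted p = 0.375).

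Heat shock and chaperone genes, of which only some are induced by stress, formed another list. Of 15, 14 were tested, 6 were above 0 and the median was -0.12; limma called none, 5 were lower and 1 higher at an unadjusted p under 0.05. Over all probes 7.03% were lower and 6.87% higher at that level, and 8006 of 12901 genes were above 0. The mitochondrial chaperone Hspd1 read 5.23, 5.65, 6.67 and 6.0 in GFP-high and 7.19, 6.92, 7.18 and 7.05 in GFP-low, a difference of -1.20 ± 0.34 SE (limma, adjusted p = 0.225). Hsp90aa1, the inducible cytosolic HSP90, differed by -1.53 ± 0.42 SE (limma, adjusted p = 0.224). The slide 1 and slide 2 values were -1.61 and -0.78 for Hspd1 and -1.68 and -1.38 for Hsp90aa1. Hspa5 and Hsph1, named after their values were seen, also had all GFP-high samples below all GFP-low samples, by -1.70 and -0.96. On slide 1 and slide 2 these were -2.76 and -0.65 for Hspa5 and -1.02 and -0.90 for Hsph1. In all, 4 of the 14 genes had separate groups, all lower, against 3.46% of all probes. The 6 genes above 0 were Hspa1a (1.0), Hsf1 (0.83), Dnajb1 (0.39), Hspb1 (0.24), Hspa8 (0.15) and Hsp90ab1 (0.091). Of these, Hsf1 was the gene higher at an unadjusted p under 0.05 by limma.

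**Figure D5:**
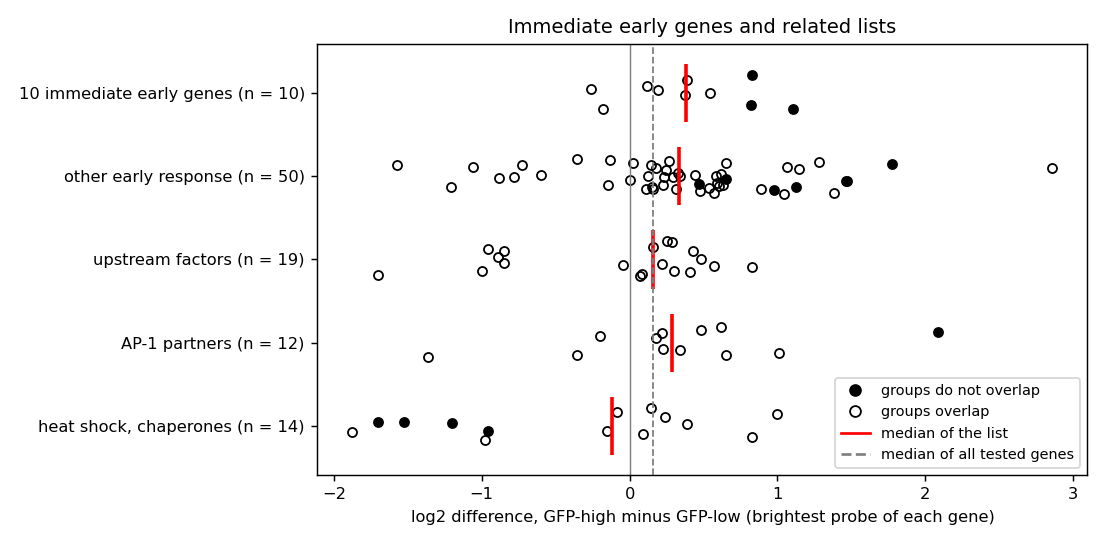
Log2 difference between GFP-high and GFP-low (x axis) for the brightest probe of each tested gene in 5 lists (y axis, vertical scatter for legibility only); filled points are genes whose groups do not overlap, red bars the list medians and the dashed line the median of all tested genes, 0.16. The medians are 0.38 for the 10 immediate early genes, 0.33 for other early response genes, 0.16 for upstream factors, 0.28 for AP-1 partners and -0.12 for heat shock genes. Fosl2, Jund, Maff and Mafk are drawn both under other early response genes and under AP-1 partners.

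Markers of heart muscle and of blood cells were read beside these values. All 12 cardiomyocyte markers were tested and above 0, with a median of 0.34 and none called by limma. Over all tested genes 8006 of 12901 were above 0, with a median of 0.16. The summed level of the 12 markers, in multiples of the array's 75th percentile, was 3017 to 4685 in GFP-high and 2080 to 3723 in GFP-low. Nkx2-5 and Actc1 were well above background in both groups. Of 10 leukocyte markers 2 were tested, Lyz2 (1.46 ± 0.26 SE, limma adjusted p = 0.106, no overlap) and Cd68 (0.94 ± 0.68 SE, limma adjusted p = 0.546, above background on 3 of the 4 GFP-low arrays), while the other 8, Ptprc, Csf1r, Tyrobp and Adgre1 among them, were too dim to be tested. The summed level of these 2 tested genes was 10.6 to 15.2 in GFP-high and 3.44 to 5.43 in GFP-low. Nearly all of it came from Lyz2, with group means of 3.56 and 2.10, against -0.63 and -1.57 for Cd68. Lyz2 separated the groups, as did the brightest probes of Nr4a1, Btg2 and Ier2 and 5.18% of all probes, while Cd68 had overlapping groups. The part of leukocytes in those differences was not tested.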

How the data were processed

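Gene expression was measured in 4 GFP-high and 4 GFP-low samples on 1-colour Agilent arrays. The intensity values deposited by the authors are background-subtracted processed signals on a linear scale, read with Agilent Feature Extraction 10.5.1.1 per the submitters' processing notes; 34.8% to 49.4% of an array's non-control spots held a surrogate in place of a value below background. Spots of a probe were averaged without those marked as outliers, log2 values were set relative to each array's 75th percentile, and probes well above background on at least 4 arrays were tested with limma 3.58.1 in R 4.3.3 (lmFit, eBayes, Benjamini-Hochberg adjustment over all tested probes). The fit was tested on simulated data. The labels call the samples biological replicates but name no litter, so p-values measure the spread between these samples. The number of arrays limits the precision. Other settings tried were the scaling, background correction, the filter on dim probes, gene-level values, slide and replicate blocks and leaving out arrays.

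The genes and lists were chosen with earlier results of these data known. All 10 genes were named with every probe; of each other list, any called genes or else the 2 with the smallest p; and the 5 genes with the profile most like the mean of the 10. Names that have changed were matched through a RefSeq table (GRCm38.p6), used for names and promoters only. Probes keep their mm9 positions, and no annotation of that build was used here, so exon or UTR positions are not given. One further marker gene is not reported here.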

Additional observations from a re-analysis of the deposited data

Results flagged for a closer look

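One Btg2 value stood far from the rest of its group. On probe A_52_P35217, GFP-low replicate 1 read -1.64, and its gap to the nearest other GFP-low sample was 0.862 of the group's range, past the critical value of Dixon's test for 4 samples. The other GFP-low samples read 0.01, -0.09 and -0.22. In all, 26 groups of 4 values were examined this way and 1 was marked, where chance marks about 1 in 20.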

How the results depend on the processing

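No setting changed the count of immediate early gene probes called by limma, which stayed at 0, nor the 0 probes called between slides. The count of all probes called, 7 in the reported fit, was 0 after scaling to the median, 20 after normexp, 18 after normexp with quantile normalization, 4 without a filter, 14 with all 8 arrays above background, 60 with a common floor, 18 and 20 at gene level (brightest probe and mean), 25 with trend and robust fitting, 4 with the slide as a block, and 0 within slide 1 and 0 within slide 2; leaving out arrays gave 0 to 22, the highest without GFP-high replicate 3 and 0 without any 1 of the other 7. The median correlation of 0.290 was 0.492 after scaling to the median, 0.222 with the percentile taken over detected probes, 0.155 with group means removed and 0.170 with group and slide means removed, and 0.211 to 0.395 leaving out arrays. The Fos difference turned to -0.028 with normexp and -0.039 within slide 2, and ran from -0.035 to 0.33 leaving out arrays; that of Fosb turned to -0.43 within slide 2 and ran from -0.070 to 0.37; Egr1 ran from -0.46 to 0.083 and Btg2 probe A_52_P35217 from -0.60 to 0.066. The cause was not tested. The other 9 tested probes kept their sign in every setting. With the percentile over detected probes the median of all probes moved from 0.13 to 0.03 and that of the 13 from 0.39 to 0.28.

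The replicate block gave 0 called probes, Kcne1 included, with a lowest adjusted p of 0.156 in limma and 3220 probes under 0.05 unadjusted, and 0 of the 13. Same-numbered arrays had correlations of their deviations from 0.0511 to 0.287, 1 of them under 0.1, so the numbers were not taken as pairs, although 7 of 8 arrays correlated best with their own number.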

Other observations

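Lists for other cells that the sort could hold showed no gene past the limma threshold. Of 10 endothelial markers 4 were tested, with a median difference of 0.03, and Esam, an endothelial junction gene, differed by 0.66 ± 0.30 SE. Of 8 epicardial markers 5 were tested and all 5 were above 0, among them Tbx18 (0.51 ± 0.25 SE) and Krt19 (0.44 ± 0.39 SE). Over all tested genes 8006 of 12901 were above 0. Of 10 cushion mesenchyme and fibroblast markers 5 were tested, with a median of -0.77, including the collagen gene Col1a2 (-0.90 ± 0.49 SE) and Pdgfra (-0.77 ± 0.65 SE). Pdgfra was measured above background in 2 samples of GFP-high and 3 of GFP-low, and its difference was -1.96 on slide 1 and 0.42 on slide 2.

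Of 10 erythroid markers 7 were tested, with a median of -0.03; their summed level ran from 26.2 to 188 in GFP-high and from 12.9 to 176 in GFP-low, so it varied more within the groups than between them. Hbb-b1, an adult-type beta globin gene, differed by -0.65 ± 1.01 SE. Of 10 neural crest and neuronal markers 3 were tested, with a median of -0.38; Tubb3 differed by -0.89 ± 0.93 SE and Ngfr by 0.31 ± 0.30 SE.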
